A study of Mus musculus with 24 samples.

Results

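Livers of female mice lacking both Foxa1 and Foxa2 were compared with wild-type livers in the absence of any treatment, using 8 of the 24 single-colour Agilent mouse arrays of the series. The members are the 4 arrays whose titles give female, dKO and untreated, and the 4 whose titles give female, WT and untreated. The other arrays are from mice of both genotypes and sexes that received a carcinogen protocol, in which DEN (20 mg/kg) was injected at 14 to 15 days of age and the constitutive androstane receptor agonist TCPOBOP (3 mg/kg) was then given every 2 weeks for a total of 8 injections. Of these, the 8 arrays from treated females, 4 per genotype, serve here as the only other comparison. All tissue is labelled as liver tumor, including the untreated groups, which had no carcinogen. The sources used here do not say which promoter drove the deletion, which strain was used, how old the untreated mice were, or whether the RNA came from whole liver or from sorted cells. The labels number the samples within a group, and do not say that each was a separate mouse. The spread that the tests use may therefore be partly technical.

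Foxa1 and Foxa2 are forkhead factors that bind nucleosomal DNA and open it for other liver regulators. They act together in liver specification, and in adult liver they bind near many genes of metabolism, of bile acid handling and of the sex-biased programme of hepatocytes. Foxa3, the third member of the family, binds the same type of site and is enriched in liver, gut and pancreas.

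Levels are given as log2 signal relative to the 75th percentile of the same array, so that 0 is the 75th percentile. A difference is dKO minus WT on this log2 scale, with its standard error from 1 limma fit of all 24 arrays, and its p-value is adjusted over all 19034 genes tested by the Benjamini-Hochberg method, with 0.05 as the threshold. The standard error thus includes the spread of the treated arrays, and a gene can miss the threshold although its untreated arrays are tight. Each genotype has n = 4 arrays unless stated otherwise. Levels of different genes come from different probes and were not set against each other.

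Before any gene is described, 1 property of the arrays has to be given. In both untreated groups the array numbered 4 lay between the lowest and the highest of the other 3 for most genes, namely for 77.0% of 14557 genes in WT and 73.6% of 14157 genes in dKO, whereas each other untreated array did so for 33.2% to 46.2%. Where the arrays of 1 group spanned at least 4-fold, replicate 4 lay a median of 0.25 (WT, 227 genes) and 0.11 (dKO, 130 genes) log2 units from the mean of the other 3 signals, and each of the other arrays lay 0.94 to 1.71 from the mean of its 3 partners. In the treated groups replicate 4 fell between the others for 70.9% to 84.7% of genes. Its distance from the mean of the other 3 was 0.13 to 0.26 in 3 of the 4 treated groups, but 0.84 in treated male dKO, where replicate 1 lay closer, at 0.79. The labels call it a replicate like the others. Whether it holds RNA of the other 3 samples was not tested, but if it does, a group has 3 independent samples, and p-values from 4 are too small.

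**Figure D1:**
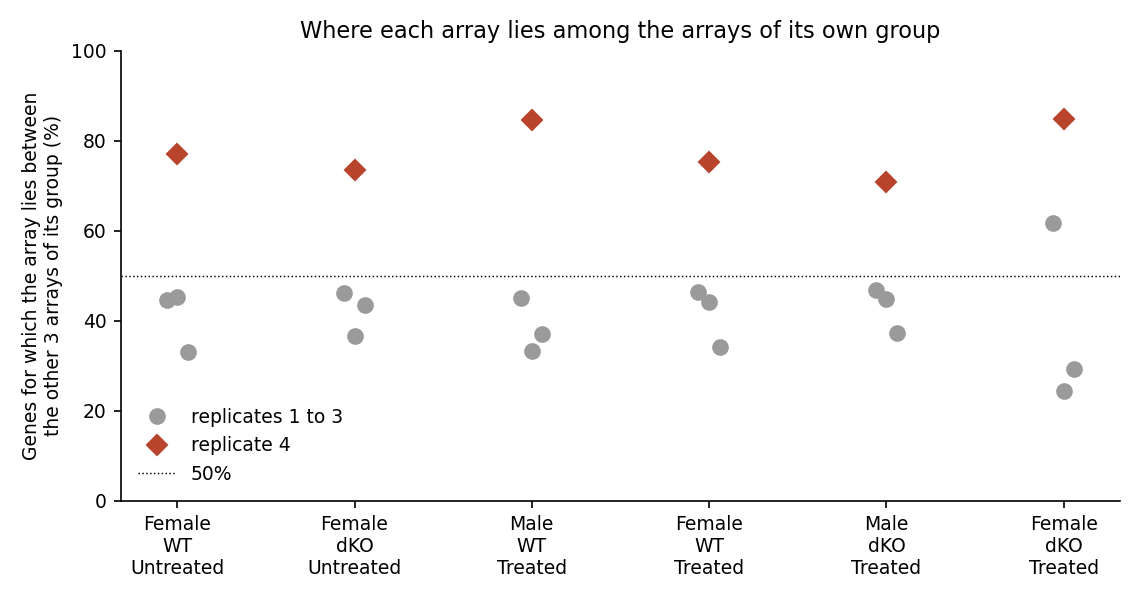
Share of genes (percent, y axis) for which an array lay between the lowest and highest of the other 3 arrays of its group, for the 6 groups of the series (x axis). Grey points are replicates 1 to 3, red diamonds replicate 4, and the dotted line is 50%. Replicate 4 is the highest point of every group, at 77.0% in untreated WT and 73.6% in untreated dKO.

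Every test was therefore also run without the replicate 4 array of all 6 groups, on 18 arrays. In what follows, a gene is said to have risen or fallen only if it passed the threshold both with all 24 arrays and without these 6. A gene that passed only with all 24 is given with its difference and called higher or lower, and its adjusted p without replicate 4 is named as such. Both counts are given for each gene list.

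The deleted genes were read first, as a check of the labels. Foxa1 (chr12:58641996-58642055 in mm9, the build of all probe positions here) stood at -2.11, -2.41, -2.42 and -2.27 on WT replicates 1 to 4 and at -5.93, -7.45, -7.75 and -7.22 on the dKO replicates. On the dKO arrays its probe never stood well above background, so the fall was at least 6.36-fold (adjusted p = 7.03e-10, and 2.66e-05 without replicate 4). An "at least" fold sets the mean of the brighter group against the lowest signal that was well above background on each dim array, or against the dim probe's own signal where that was higher. Foxa2 (chr2:147868698-147868757) stood at 4.49, 4.92, 3.93 and 4.45 in WT and at -1.93, -7.13, -3.77 and -3.14 in dKO, a difference of -8.44 ± 0.77 (adjusted p = 5.6e-07, and 0.000576 without replicate 4). The groups were far apart for both genes, and Foxa2 varied over a wide range among the dKO arrays, with replicate 1 the highest and replicate 2 the lowest. Its probe was well above background on 3 of the 4 dKO arrays. The authors' deposited table lists both genes as lower, with a signed fold of -22.2 for Foxa1. The sources used here do not say which exons were removed, so it cannot be told whether either probe lies within the deletion.

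Foxa3 (chr7:19599053-19599112), which was not deleted, stood at 1.33, 0.35, 1.09 and 0.88 in WT and 1.36, 2.02, 1.76 and 1.69 in dKO. All dKO arrays read above all WT arrays, by a difference of 0.80 ± 0.27, which did not pass the threshold (adjusted p = 0.0709).

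The tissue read as liver in both genotypes. The 18 hepatocyte markers summed to 3572 to 4633 linear units in WT and 3585 to 3898 in dKO, where 1 unit is the 75th percentile signal. In bulk RNA, a change in the number of cells of a type and a change in RNA per cell cannot be told apart, here and for every marker list below. Albumin (Alb) stood at 9.78, 9.38, 10.10 and 9.79 in WT and 9.62, 9.79, 9.66 and 9.79 in dKO, and its groups overlapped (difference -0.05 ± 0.15, adjusted p = 0.883). Xist, expressed from the inactive X of females, differed by 0.04 ± 0.63 between the genotypes.

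Across the genome, 1868 of 19034 genes passed the threshold with all arrays (9.81%), 989 higher in dKO (5.2%) and 879 lower (4.62%). Without replicate 4 the count was 307. Of the 1868 genes, 306 passed in both fits in the same direction (1.61%), 175 higher (0.919%) and 131 lower (0.688%). The counts of each gene list below are to be read against these shares of all genes. The lists were written with earlier results of these data known, so a share above these is a description and not a test. The arrays of the genotypes did not overlap for 4320 genes (22.7%). The median difference of all genes was -0.04. Within the slides that carried both genotypes, WT replicate 1 with dKO replicate 2 and WT replicate 3 with dKO replicate 3, 1841 of the 1868 genes (98.6%) had the same sign in both pairs. All 1868 had the same sign in the authors' deposited table. The paired arrays belong to the comparison that chose the 1868 genes, and the authors' table belongs to the same series. Neither agreement is therefore an independent check.

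**Figure D2:**
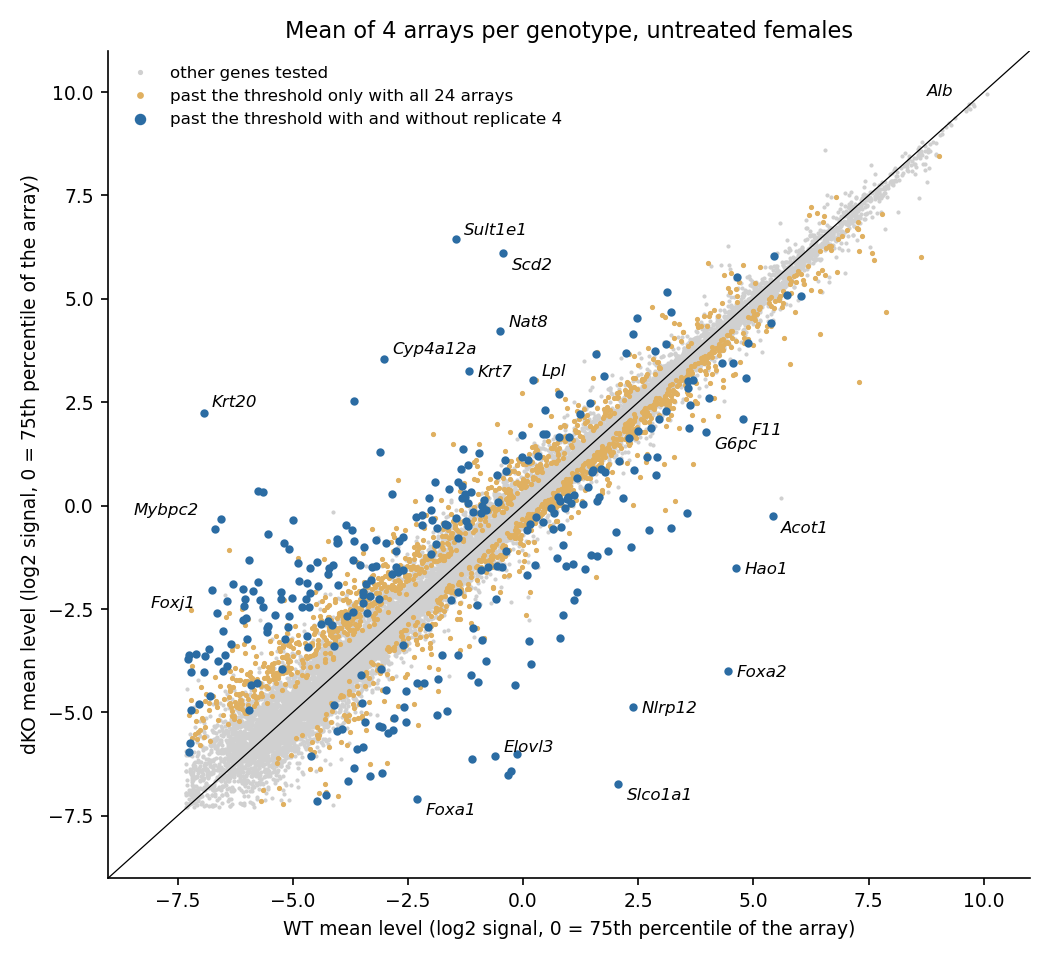
Mean level in dKO (y axis) against mean level in WT (x axis) of each gene tested, both as log2 signal relative to the 75th percentile of the array, 4 arrays per genotype. Blue points passed the threshold with and without replicate 4 (306 genes), ochre points only with all 24 arrays, grey points in neither way, and the line marks equal levels. Krt20 and Sult1e1 stand far above the line, Slco1a1, Foxa2 and Nlrp12 far below it, and Alb lies on it.

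Forkhead factors of the Foxa type bind a core of 7 bases. TGTTTAC, its first variant TATTTAC and its second variant TGTTTGC were searched on either strand in the 250 bases before the gene start of the RefSeq promoters (GRCm38.p6). A match was held by 8.65% of the genes tested that had a promoter in the table, by 9.67% of those higher and 8.70% of those lower with all arrays, and by 7.55% of those that rose and 12.2% of those that fell in both fits. These shares are descriptions, and a match does not show a bound site. Of the 20 highest and 20 lowest genes, 22 had a promoter in the table and 7 held a match. Of these, 5 are shown with the matched letters in capitals, because they place the letters relative to the start of genes described here; each runs 5′ to 3′ on the strand of the gene and ends at the base before the start.
Nlrp12: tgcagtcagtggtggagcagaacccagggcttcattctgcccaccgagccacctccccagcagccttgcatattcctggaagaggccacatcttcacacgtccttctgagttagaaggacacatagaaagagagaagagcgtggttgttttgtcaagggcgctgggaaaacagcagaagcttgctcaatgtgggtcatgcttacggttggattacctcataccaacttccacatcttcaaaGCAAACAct
Hsd3b5: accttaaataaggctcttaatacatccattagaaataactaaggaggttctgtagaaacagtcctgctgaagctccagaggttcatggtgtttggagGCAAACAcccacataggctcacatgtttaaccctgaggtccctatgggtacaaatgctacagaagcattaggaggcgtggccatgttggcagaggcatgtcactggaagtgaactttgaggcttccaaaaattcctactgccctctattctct
Hao1: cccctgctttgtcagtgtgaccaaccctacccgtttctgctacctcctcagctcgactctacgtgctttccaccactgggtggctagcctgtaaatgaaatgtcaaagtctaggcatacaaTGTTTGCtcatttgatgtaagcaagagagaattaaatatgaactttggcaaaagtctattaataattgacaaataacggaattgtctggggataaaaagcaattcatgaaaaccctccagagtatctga
Tinag: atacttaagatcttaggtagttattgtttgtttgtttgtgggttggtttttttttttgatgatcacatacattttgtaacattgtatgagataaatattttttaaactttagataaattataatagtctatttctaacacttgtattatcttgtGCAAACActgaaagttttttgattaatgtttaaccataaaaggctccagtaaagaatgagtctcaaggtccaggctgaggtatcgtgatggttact
Acot1: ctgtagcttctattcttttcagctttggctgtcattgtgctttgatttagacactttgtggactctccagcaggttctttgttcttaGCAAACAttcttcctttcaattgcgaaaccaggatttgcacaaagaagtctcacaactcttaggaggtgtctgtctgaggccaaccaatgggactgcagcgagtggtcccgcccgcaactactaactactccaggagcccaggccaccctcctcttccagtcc
In GRCm38.p6 these windows are chr7:3249741-3249990 for Nlrp12, chr3:98645535-98645784 for Hsd3b5, chr2:134554353-134554602 for Hao1 and chr9:77045782-77046031 for Tinag, all on the minus strand, and chr12:84009252-84009501 for Acot1 on the plus strand. The match began 9 bases before the start of Nlrp12, 96 before Tinag, 129 before Hao1, 153 before Hsd3b5 and 163 before Acot1. All 5 carry the version TGTTTGC, 4 of them as GCAAACA on the strand of the gene. Of these genes, Tinag rose and the other 4 fell.

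The identity genes of the hepatocyte were the first group examined, since Foxa1 and Foxa2 take part in their activation during development. Among 29 liver-enriched transcription factors none rose and none fell in both fits. With all arrays 3 were lower, by less than 1 log2 unit each, among them Hhex, a homeobox factor of early liver (-0.86 ± 0.26; adjusted p = 0.0388, and 0.341 without replicate 4), and Creb3l3, a membrane-bound factor of hepatic lipid metabolism (-0.66 ± 0.13, adjusted p = 0.0895 without replicate 4). The list's median was -0.06, against -0.04 for all genes. Hnf4a stood at 4.21, 3.99, 3.72 and 4.08 in WT and 3.77, 4.10, 3.68 and 3.91 in dKO, and its groups overlapped, as did those of Cebpa (0.18 ± 0.22). Transthyretin (Ttr), a textbook Foxa target in cultured hepatoma cells, stood at 4.42, 4.29, 4.68 and 4.49 in WT and 4.22, 4.35, 4.59 and 4.41 in dKO (-0.08 ± 0.18). Of 20 liver genes that textbooks name as bound by Foxa factors, none was higher and 3 were lower with all arrays, and 1 fell in both fits, G6pc, which is described below. Among 18 forkhead genes outside the Foxa family, 2 were higher and 1 was lower with all arrays, and 1 rose in both fits. This was Foxj1, the regulator of motile cilia. Its probe was not well above background on any of the WT arrays and stood at -2.67, -2.95, -2.10 and -2.62 in dKO, at least 5.35-fold higher (adjusted p = 7.76e-05, and 0.00936 without replicate 4). With normexp background correction Foxj1 no longer passed (adjusted p = 0.115). Foxc1 (1.21 ± 0.25, adjusted p = 0.0569 without replicate 4) and Foxp4 (-0.74 ± 0.22, adjusted p = 0.383 without replicate 4) passed only with all arrays; both are named because they complete this count, after their values were seen.

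Of 30 secreted plasma proteins, none was higher and 2 were lower with all arrays, and 1 fell in both fits. This was Serpina7, thyroxine-binding globulin, which stood at 0.62, -0.64, 0.52 and 0.21 in WT and -3.53, -4.11, -3.76 and -3.94 in dKO (-4.01 ± 0.65; adjusted p = 0.000417, and 0.0327 without replicate 4). The groups were clearly apart, with WT replicate 2 the lowest of the WT arrays. The major urinary protein Mup3 was lower with all arrays (-2.62 ± 0.48, adjusted p = 0.062 without replicate 4), but its 2 probes disagreed (-2.62 and -0.04) and the gene belongs to a cluster of near-identical copies.

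Of 45 clotting and complement genes tested, 1 was higher and 6 were lower with all arrays (15.6% called, against 9.81% of all genes), and 1 fell in both fits. Coagulation factor XI (F11) stood at 4.71, 4.74, 4.90 and 4.74 in WT and 2.03, 2.34, 2.02 and 2.03 in dKO, a fall of 6.34-fold (adjusted p = 6.94e-06, and 0.00458 without replicate 4). Its arrays were tight in both groups. The terminal complement components C8b (-2.38 ± 0.56, adjusted p = 0.162 without replicate 4) and Hc, which is complement C5 (-1.15 ± 0.22, adjusted p = 0.0741 without replicate 4), were lower with all arrays. Of the apolipoproteins and lipoprotein genes, 2 of 27 were higher, 2 lower and none passed in both fits. Apoc3, an inhibitor of lipoprotein clearance, was higher (0.68 ± 0.16, adjusted p = 0.192 without replicate 4). Apoa1, the main protein of high-density lipoprotein, was lower (-1.46 ± 0.36, adjusted p = 0.189 without replicate 4) and is the 1 hepatocyte marker of 18 that passed with all arrays.

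**Figure D3:**
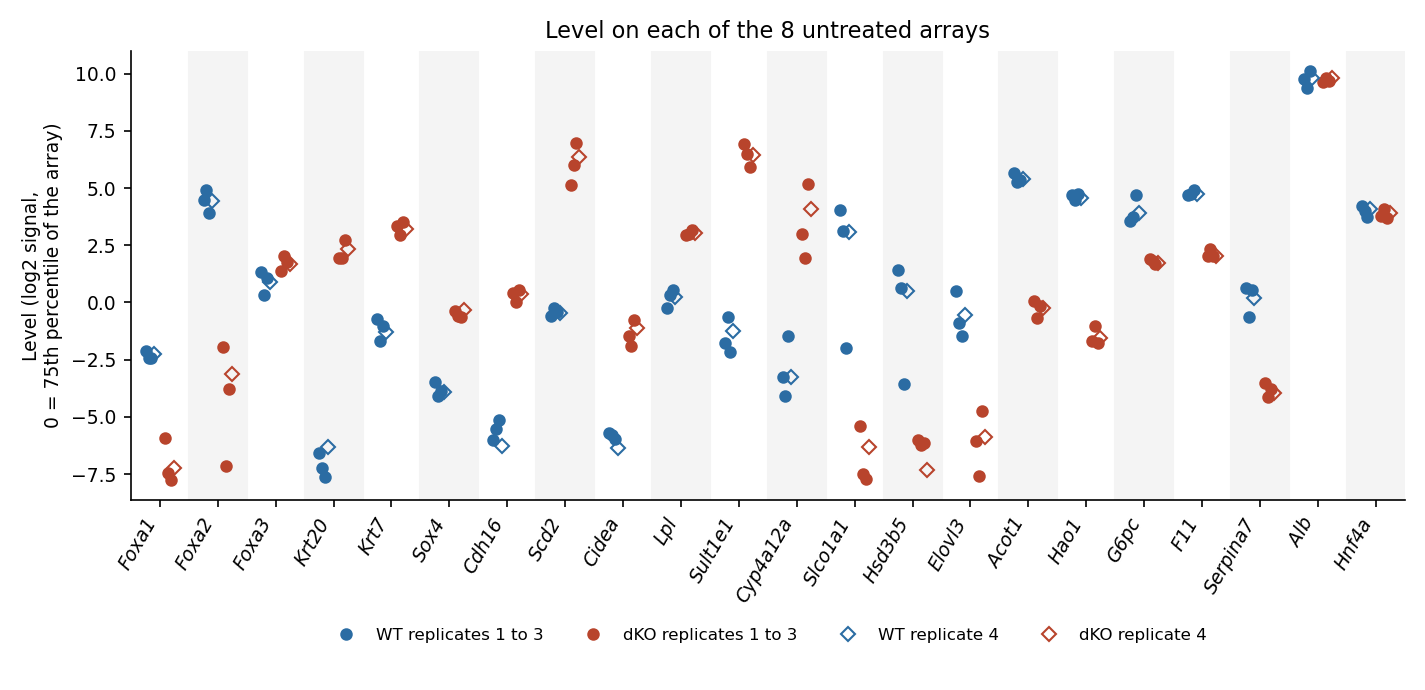
Level of 22 genes on each untreated array (log2 signal, 0 is the 75th percentile of the array). Blue is WT, red is dKO, filled circles are replicates 1 to 3 and open diamonds replicate 4. The genotypes do not overlap for the genes from Krt20 to Serpina7, Alb and Hnf4a overlap, and WT replicate 3 stands apart from the other WT arrays for Slco1a1 and Hsd3b5.

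Lipid metabolism held several of the largest differences. Genes of fatty acid oxidation and targets of the receptor PPARA were lower as a group, with a list median of -0.47 (-0.63 and -0.84 within the 2 shared slides). Of 43 tested, 18 were lower and none higher with all arrays, and 3 fell in both fits. Acot1, a cytosolic thioesterase that frees fatty acids from coenzyme A, stood at 5.66, 5.28, 5.34 and 5.39 in WT and 0.06, -0.68, -0.16 and -0.24 in dKO, a 51-fold fall (adjusted p = 7.08e-11, and 5.09e-06 without replicate 4). Its groups were more than 5 log2 units apart. The neighbouring mitochondrial form Acot2 fell too (-1.67 ± 0.26, adjusted p = 0.0319 without replicate 4). The members of this family are similar in sequence, and how well their probes separate them was not tested. The omega-hydroxylase Cyp4a14 stood at 7.92, 7.24, 8.44 and 7.89 in WT and 4.92, 4.44, 4.84 and 4.55 in dKO (-3.19 ± 0.57; adjusted p = 0.00106, and 0.0614 without replicate 4). These groups did not overlap either, although the call was lost without replicate 4. Smaller differences of the same kind were those of Cyp4a10 (-1.16 ± 0.28) and the peroxisome gene Pex11a (-1.24 ± 0.37), each past the threshold only with all arrays. Ppara itself did not pass (-0.31 ± 0.19; adjusted p = 0.318), nor did the fasting hormone Fgf21 (-2.07 ± 0.85; adjusted p = 0.132), whose WT arrays ranged from -2.63 to 1.05.

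Among desaturases, elongases and other genes of fat synthesis the direction differed from gene to gene. Of 32 tested, 3 were higher and 4 lower with all arrays, with a list median of 0.04. Scd2, a stearoyl-CoA desaturase that is abundant in fetal liver and in brain, stood at -0.61, -0.26, -0.40 and -0.44 in WT and 5.12, 6.00, 6.97 and 6.35 in dKO, a 92.8-fold rise (adjusted p = 2.74e-10, and 1.3e-05 without replicate 4). Every dKO array was more than 5 log2 units above every WT array. Scd1, the main desaturase of adult liver, stood at 4.17, 4.79, 2.77 and 4.30 in WT and 5.01, 5.39, 6.82 and 6.23 in dKO (1.86 ± 0.51, adjusted p = 0.241 without replicate 4). For Scd1 the low WT value is that of replicate 3, and without this array the difference was 1.44 and did not pass (adjusted p = 0.0835). Elovl3, an elongase of saturated very long chains, stood at 0.48, -0.88, -1.47 and -0.55 in WT and -6.06, -7.59, -4.72 and -5.87 in dKO, and fell by 5.46 log2 units (adjusted p = 6.55e-06, and 0.00358 without replicate 4). Its probe was well above background on only 1 dKO array, and with normexp background correction the difference was -2.71. Elovl2, an elongase of polyunsaturated chains, was lower (-2.07 ± 0.36, adjusted p = 0.0577 without replicate 4). Lpin1, a phosphatidate phosphatase of triglyceride synthesis, fell (-1.51 ± 0.22, adjusted p = 0.0183 without replicate 4). In cholesterol synthesis 1 of 24 genes passed with all arrays, Cyp51 (-0.84 ± 0.22), and none in both fits.

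Of 23 genes of lipid droplets and adipocytes, 3 were higher and 2 lower, and 2 rose in both fits. Cidea, a droplet protein of brown fat, was not well above background on any of the WT arrays and stood at -1.48, -1.91, -0.75 and -1.13 in dKO, at least 12.8-fold higher (adjusted p = 6.55e-06, and 0.00486 without replicate 4). Lipoprotein lipase (Lpl), which adult hepatocytes express weakly, stood at -0.24, 0.33, 0.56 and 0.24 in WT and 2.93, 2.99, 3.17 and 3.03 in dKO (2.81 ± 0.22; adjusted p = 8.2e-08, and 0.000324 without replicate 4). The dKO arrays lay within 0.3 log2 units of each other. The adipocyte factor Pparg did not pass (-0.50 ± 0.25; adjusted p = 0.231). Complement factor D (Cfd), secreted mainly by fat cells, ranged from -6.57 on dKO replicate 2 to 2.02 on dKO replicate 3 and from -8.14 to -4.49 in WT. Its groups overlapped, and the call with all arrays (5.31 ± 1.42; adjusted p = 0.021) was not kept without replicate 4 (adjusted p = 0.277). The transcript NAP025923-1, whose probe lies beside that of Cfd on chromosome 10, showed the same order of the dKO arrays, at -2.24, -7.64, 0.53 and -0.71.

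Glucose and glycogen genes were examined because both factors have been tied to fasting metabolism. None of 25 was higher, 5 were lower with all arrays, and 1 fell in both fits; the list median was -0.29. Glucose-6-phosphatase (G6pc), which releases free glucose, stood at 3.58, 3.76, 4.68 and 3.90 in WT and 1.91, 1.80, 1.67 and 1.73 in dKO, a 4.6-fold fall (adjusted p = 0.000531, and 0.0402 without replicate 4). The dKO arrays lay close together, and the WT arrays were all above them. Ppp1r3g, a glycogen-targeting subunit of protein phosphatase 1, stood at 2.26, 2.72, 4.09 and 3.22 in WT and -0.33, -0.32, 0.34 and -0.08 in dKO (-3.17 ± 0.55, adjusted p = 0.0528 without replicate 4). WT replicate 3 was the highest array for both. Glycogen synthase of liver (Gys2, -0.99 ± 0.24) was lower with all arrays only. Of 28 genes of glycolysis outside the adult liver forms, 1 was higher and 2 were lower, none in both fits; Pfkfb1, which sets the level of fructose 2,6-bisphosphate, was lower (-0.76 ± 0.17, adjusted p = 0.129 without replicate 4).

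Glycolate oxidase (Hao1), the peroxisomal enzyme that turns glycolate into glyoxylate, stood at 4.70, 4.48, 4.74 and 4.56 in WT and -1.67, -1.02, -1.79 and -1.55 in dKO, a 69.9-fold fall (adjusted p = 3.73e-08, and 0.000157 without replicate 4). Both groups were tight and more than 5 log2 units apart. It was the 1 gene of 50 in amino acid and glyoxylate catabolism to fall in both fits, and none rose. Glutamine synthetase (Glul), the marker of hepatocytes around the central vein, was lower with all arrays (-0.79 ± 0.22, adjusted p = 0.218 without replicate 4). Of 27 pericentral genes, none was higher and 5 were lower (median -0.47; -0.46 and -0.15 within the shared slides), and of 21 urea cycle and periportal genes 3 were higher and none lower (median 0.26), none of them in both fits.

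Steroid and retinoid enzymes moved in both directions. Of 36 tested, 6 were higher and 7 lower with all arrays, and 2 rose and 4 fell in both fits. Hsd3b5, a 3-ketosteroid reductase of male liver, stood at 1.40, 0.61, -3.55 and 0.49 in WT and was not well above background on any of the dKO arrays, at least 26.2-fold lower (adjusted p = 0.000388, and 0.0466 without replicate 4). The retinol dehydrogenase family member Rdh9 (-2.15 ± 0.29, adjusted p = 0.0141 without replicate 4), the alcohol dehydrogenase Adh4 (-1.75 ± 0.26, adjusted p = 0.0183 without replicate 4) and steroid 5-alpha-reductase Srd5a1 (-1.20 ± 0.19, adjusted p = 0.0344 without replicate 4) fell as well, although the second probe of Rdh9 read only -0.27. Dhrs9, a retinol dehydrogenase (2.52 ± 0.40, adjusted p = 0.0212 without replicate 4), rose, although it missed the threshold with normexp background correction (adjusted p = 0.0521). Hsd17b6 (-2.69 ± 0.58, adjusted p = 0.121 without replicate 4) was lower with all arrays only.

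Foxa1 and Foxa2 act with the receptors of sex hormones in liver, and genes that differ between male and female liver were examined in these female mice. Male-biased genes held 2 higher and 9 lower of 24 (median -0.34), with 2 that rose and 4 that fell in both fits. Slco1a1, an organic anion transporter of the sinusoidal membrane, stood at 4.04, 3.14, -2.0 and 3.07 in WT and was not well above background on any of the dKO arrays, at least 131-fold lower (adjusted p = 5.31e-06, and 0.00358 without replicate 4). WT replicate 3 was more than 5 log2 units below the other WT arrays and still above every dKO array. The same array was the low one for Hsd3b5 and for Susd4, a regulator of complement that fell from 0.54, 0.43, -1.90 and 0.24 in WT to -4.39, -4.94, -4.06 and -3.99 in dKO (adjusted p = 5.6e-07, and 0.000689 without replicate 4). Without WT replicate 3, which as the lowest WT array can only bring the groups closer, the difference of Susd4 was -4.75 in place of -4.18, and Slco1a1 and Hsd3b5 were still called (adjusted p = 1.09e-08 and 2.7e-05). Cyp4a12a, an omega-hydroxylase of male liver and kidney, ran the other way, at -3.26, -4.07, -1.46 and -3.25 in WT and 2.98, 1.95, 5.19 and 4.10 in dKO (6.57 ± 0.71; adjusted p = 4.74e-06, and 0.00359 without replicate 4). Here replicate 3 was the highest array in both genotypes, and these arrays shared a slide. The probe may also read the near-identical copy Cyp4a12b, whose own probe differed by -0.90 and was not called. In a fit of only the 6 untreated arrays numbered 1 to 3, which leaves fewer arrays for the spread, none of Slco1a1, Hsd3b5, Susd4 and Cyp4a12a passed. Cyp7b1, an oxysterol hydroxylase, was lower (-1.54 ± 0.25, adjusted p = 0.0506 without replicate 4).

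Female-biased genes held 5 higher and 4 lower of 30 with all arrays, and 2 rose in both fits, Lpl and Sult1e1. Sult1e1, estrogen sulfotransferase, which inactivates estradiol, stood at -1.75, -0.65, -2.17 and -1.26 in WT and 6.94, 6.49, 5.92 and 6.46 in dKO, a 241-fold rise (adjusted p = 2.06e-07, and 0.000497 without replicate 4). The groups were more than 6 log2 units apart. Sult3a1, a sulfotransferase of female liver, was split within the dKO group, at -4.11, -5.47, 5.68 and 4.62 for replicates 1 to 4 against 4.81, 4.94, 6.76 and 5.88 in WT, and did not pass (adjusted p = 0.0693). Cyp17a1 (2.01 ± 0.62, adjusted p = 0.31 without replicate 4), Ptgds (2.43 ± 0.68, adjusted p = 0.264 without replicate 4) and Atp6v0d2 (2.14 ± 0.59, adjusted p = 0.235 without replicate 4) were higher with all arrays only. Of 25 genes of the growth hormone and sex hormone axis, 3 were higher and none lower, none in both fits. Esr1 (0.53 ± 0.24), Ghr (-0.28 ± 0.23) and Prlr (-0.14 ± 0.33) did not pass, and Igf1, the main output of growth hormone in liver, differed by -0.05 ± 0.19. Shbg, which binds sex steroids in plasma and was chosen after its values were seen, was higher with all arrays (2.12 ± 0.52, adjusted p = 0.154 without replicate 4). Its probe was well above background on no WT array and on 3 dKO arrays, so the fold is only at least 1.31. With normexp background correction its difference was 0.17 (adjusted p = 0.85).

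Drug-metabolizing cytochromes of families 1 to 3 rarely passed. Of 36 tested, 1 was lower with all arrays (2.78%, against 9.81% of all genes), Cyp2g1 (-3.32 ± 0.60, adjusted p = 0.0699 without replicate 4), and none in both fits. The untreated arrays of the genotypes did not overlap for 3 higher and 12 lower members, against 22.7% of all genes in either direction. Cyp2b10, the gene most used as a readout of the receptor that TCPOBOP activates, stood at 2.51, 2.62, 2.37 and 2.56 in WT and 3.62, 3.48, 3.88 and 3.77 in dKO, without overlap but short of the threshold (1.17 ± 0.45; adjusted p = 0.103). Its standard error also draws on the treated arrays, and the treated dKO arrays read 5.42, 1.88, 4.69 and 4.49. Among 43 conjugating enzymes, 3 were higher and 6 lower, and Sult1e1 and Nat8 rose in both fits. Nat8, an N-acetyltransferase that forms mercapturic acids in kidney, stood at -0.79, -0.33, -0.29 and -0.59 in WT and 3.78, 4.07, 4.80 and 4.2 in dKO (4.71 ± 0.59; adjusted p = 2.87e-05, and 0.00916 without replicate 4). Its relatives Nat8f3 (4.65 ± 0.61, adjusted p = 0.0113 without replicate 4) and Nat8f5 (4.40 ± 0.76, adjusted p = 0.0483 without replicate 4) rose too. Nat8f3 was well above background on only 2 WT arrays, and with normexp background correction it differed by 2.54. These copies are alike in sequence, and whether their probes read separate transcripts was not tested. Of 32 targets of NRF2 and glutathione genes, 3 were higher and 2 lower, none in both fits, among them the secreted peroxidase Gpx3 (1.57 ± 0.28, adjusted p = 0.0629 without replicate 4) and the epoxide hydrolase Ephx1 (-1.25 ± 0.26, adjusted p = 0.109 without replicate 4).

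Bile acid genes were examined because Foxa2 is known to bind near genes of bile acid transport. Of 18 synthesis genes, none was higher and 3 were lower with all arrays, none in both fits; Cyp27a1, which starts the acidic pathway, stood at 3.70, 4.03, 3.26 and 3.71 in WT and 2.34, 2.21, 2.10 and 2.12 in dKO (-1.48 ± 0.31, adjusted p = 0.124 without replicate 4), without overlap. Cyp7a1, the rate-limiting enzyme of the classical pathway, stood at 3.65, 4.18, 3.12 and 3.82 in WT and 3.79, 4.31, 3.59 and 3.86 in dKO and its groups overlapped (0.20 ± 0.81; adjusted p = 0.914). Cyp8b1, which makes cholic acid, also overlapped (-1.62 ± 0.85; adjusted p = 0.251). Of 35 uptake transporters, 5 were higher and 5 lower, and in both fits Slco1a1 fell and Slc17a1, a phosphate and organic anion carrier, rose (1.21 ± 0.16, adjusted p = 0.0121 without replicate 4). Slc10a2, the bile acid importer of ileum and bile ducts, was higher (1.57 ± 0.30, adjusted p = 0.0782 without replicate 4). Slc22a30 (-1.41 ± 0.27, adjusted p = 0.0888 without replicate 4) was lower. Of 22 efflux and canalicular transporters, 1 was lower with all arrays, the phospholipid flippase Atp8b1 (-0.63 ± 0.13, adjusted p = 0.0982 without replicate 4).

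The other main direction of change was a gain of epithelial genes that adult hepatocytes express little. Bile duct markers had the largest share of members past the threshold among the lists used here. Of 27 tested, 15 were higher and 1 lower with all arrays, 7 rose in both fits, among them Krt7, Krt23, Cd24a, Pkhd1, Cldn7 and Ezr, and the median was 1.28 (1.03 and 1.32 within the shared slides). The markers summed to 83.9 to 111 linear units in WT and 135 to 155 in dKO, so the ranges did not overlap. Krt7, a keratin of bile ducts, stood at -0.73, -1.69, -1.01 and -1.28 in WT and 3.34, 2.97, 3.52 and 3.23 in dKO, a 21.7-fold rise (adjusted p = 2.32e-06, and 0.00253 without replicate 4). All dKO arrays lay more than 3 log2 units above the highest WT array. Krt19 (2.04 ± 0.48, adjusted p = 0.205 without replicate 4), the most used duct marker, and Epcam (2.10 ± 0.47, adjusted p = 0.171 without replicate 4) were higher with all arrays only, and Sox9, the factor of duct cells, did not pass (1.07 ± 0.37; adjusted p = 0.0718) and its 3 probes read from -0.06 to 1.21. For Krt19 and Epcam dKO replicate 2 was the lowest dKO array. The same array was the lowest of the dKO group for the calcium-binding protein Anxa13 (-1.56, -1.34, -1.58 and -1.64 in WT, 1.75, 0.44, 2.10 and 1.64 in dKO; adjusted p = 0.00153, and 0.0728 without replicate 4).

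Keratins held 5 higher and none lower of 15, and 3 rose in both fits, Krt7, Krt20 and Krt23. Krt20, a keratin of intestinal and urothelial lining, was not well above background on any of the WT arrays and stood at 1.94, 1.96, 2.71 and 2.32 in dKO, at least 151-fold higher (adjusted p = 7.34e-07, and 0.000685 without replicate 4). Krt23 stood at 2.57, 1.96, 4.64 and 3.36 in WT and 5.09, 5.07, 5.31 and 5.15 in dKO (2.02 ± 0.34, adjusted p = 0.035 without replicate 4). WT replicate 3 was its highest WT array, below all dKO arrays, and without that array the difference was 2.52. The keratins of hepatocytes themselves differed by 0.33 ± 0.20 for Krt8 (adjusted p = 0.332) and 0.49 ± 0.13 for Krt18 (0.0226; 0.214 without replicate 4).

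Genes of kidney tubule epithelium included some of the largest rises of the comparison. Of 40 such genes on the array 27 were tested. The others did not pass the filter on dim probes, which asks for a signal well above background on at least 4 of the 24 arrays. A gene dim in WT liver can pass this filter through the arrays where it is bright, so counts of higher members may lean upward. With all arrays 7 were higher and 2 lower (33.3% called, against 9.81% of all genes), and 4 rose and 1 fell in both fits. This list too was written with earlier results of these data known, so its share is not an independent test. Cdh16, a cadherin of kidney tubules, stood at -6.02, -5.54, -5.15 and -6.27 in WT and 0.40, 0.03, 0.56 and 0.37 in dKO (6.09 ± 0.64; adjusted p = 3.6e-06, and 0.00258 without replicate 4). Tinag, a basement membrane protein of the tubule, was not well above background on any of the WT arrays and stood at -0.09, -1.65, -0.10 and -0.41 in dKO, at least 21.7-fold higher (adjusted p = 2.32e-06, and 0.0018 without replicate 4). Dnase1, a nuclease secreted by kidney and gut, stood at -6.06, -5.99, -4.21 and -6.36 in WT and 0.76, 0.29, -0.08 and 0.37 in dKO (5.99 ± 0.45, adjusted p = 0.000186 without replicate 4). For all 3 genes, each dKO array was far above each WT array. Cdh16 was well above background on only 2 WT arrays and Dnase1 on only 1, and with normexp background correction they differed by 3.20 and 3.24. Outside the list, Slc36a2, an amino acid carrier of the tubule, and Col4a3, a basement membrane collagen of the glomerulus, rose as well, Slc36a2 at least 6.52-fold (adjusted p = 0.0396 without replicate 4) and Col4a3 by 4.29 ± 0.71 (adjusted p = 0.0363 without replicate 4). With normexp background correction Slc36a2 no longer passed (adjusted p = 0.14). Col4a3, well above background on only 1 WT array, differed by 2.13 with that correction. Miox, which degrades inositol in the proximal tubule, fell (-2.34 ± 0.26, adjusted p = 0.00451 without replicate 4), so the direction was not uniform. Of 42 gut and stomach epithelium genes on the array, 20 passed the same filter. They held 2 higher and 2 lower (20% called), and Krt20 and Spink1 rose in both fits. Of 29 airway and secretory epithelium genes on the array, 22 passed the filter. Airway genes held 6 higher and none lower (27.3% called), and 2 rose in both fits, among them Foxj1. Their higher members with all arrays only included the protease inhibitor Wfdc2 (2.76 ± 0.49, adjusted p = 0.053 without replicate 4) and the water channel Aqp5 (2.24 ± 0.41, adjusted p = 0.0581 without replicate 4).

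Cell adhesion genes held 12 higher and 3 lower of 43 with all arrays, and 5 rose and 2 fell in both fits (median 0.17). Cldn7, a tight junction claudin, rose by 2.05 ± 0.30 (adjusted p = 0.0177 without replicate 4) and E-cadherin (Cdh1) by 1.23 ± 0.21 (adjusted p = 0.0479 without replicate 4). The 2 members that fell are both proteins of desmosomes. Desmoplakin (Dsp) stood at 1.89, 1.5, 1.48 and 1.59 in WT and 0.01, 0.14, 0.21 and 0.11 in dKO (-1.49 ± 0.16; adjusted p = 4.74e-06, and 0.00358 without replicate 4). The desmoglein Dsg1c stood at 0.65, 0.25, -1.36 and -0.04 in WT and was not well above background on any of the dKO arrays, at least 28.2-fold lower (adjusted p = 0.00963 without replicate 4).

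Fetal liver and liver tumour genes held 7 higher and 1 lower of 27, and 5 rose in both fits (median 0.61; 0.18 and 1.01 within the shared slides). The list's median on dKO replicate 2, relative to each gene's WT mean, was -0.01, inside the range of the WT arrays (-0.22 to 0.16). Afp, H19, Igf2, Dlk1 and Gpc3, which are also on this list, were not among the members that passed in either fit. Sox4, a factor of progenitor and duct cells, stood at -3.46, -4.08, -3.89 and -3.91 in WT and -0.35, -0.58, -0.65 and -0.34 in dKO (3.35 ± 0.29; adjusted p = 2.06e-07, and 0.000685 without replicate 4). Cd24a, a surface protein of progenitor and duct cells, rose by 3.12 ± 0.42 (adjusted p = 0.0135 without replicate 4). Spink1, a trypsin inhibitor, stood at -3.12, -4.23, -2.71 and -4.63 in WT and 3.04, -0.13, 4.04 and 3.16 in dKO (6.20 ± 0.79, adjusted p = 0.0127 without replicate 4), and dKO replicate 2 was more than 3 log2 units below the other dKO arrays. Alpl, alkaline phosphatase, was lower with all arrays (-1.84 ± 0.38, adjusted p = 0.113 without replicate 4). Some of the 20 highest genes belonged to no list. Mybpc2, a myosin-binding protein of fast muscle, was not well above background on any of the WT arrays and stood at -0.41, -0.39, -0.12 and -0.38 in dKO, at least 25.7-fold higher (adjusted p = 0.000447 without replicate 4). Scin, an actin-severing protein, was at least 7.86-fold higher (adjusted p = 0.00151 without replicate 4), and Fam81a rose by 4.85 ± 0.39 (adjusted p = 0.000186 without replicate 4). Fam81a was well above background on only 2 WT arrays, and with normexp background correction it differed by 2.37.

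Among the 20 lowest genes were several that no list held. Nlrp12, an inhibitory protein of innate immune signalling, stood at 2.75, 2.03, 2.51 and 2.30 in WT and -4.65, -4.69, -5.01 and -5.14 in dKO (-7.27 ± 1.05; adjusted p = 0.00012, and 0.0171 without replicate 4). Its second probe read a smaller difference of -3.30. The probe used was well above background on only 2 dKO arrays, and with normexp background correction Nlrp12 differed by -5.18. Irx1, a homeobox factor, stood at -0.33, 0.87, -1.89 and 0.05 in WT and was not well above background on any of the dKO arrays, at least 25.1-fold lower (adjusted p = 0.000249 without replicate 4). Enho, which encodes the secreted peptide adropin, stood at 4.44, 3.91, 2.28 and 3.64 in WT and -0.33, -0.14, -0.17 and -0.04 in dKO (-3.74 ± 0.35, adjusted p = 0.00122 without replicate 4). WT replicate 3 was again the lowest WT array for Irx1 and Enho, and no groups overlapped. The NADPH oxidase Nox4 fell (-3.41 ± 0.44, adjusted p = 0.0113 without replicate 4) and chymotrypsin C (Ctrc) at least 3.77-fold (adjusted p = 0.00698 without replicate 4). Of 9 exocrine pancreas markers tested, 1 fell, the elastase Cela2a, at least 1.61-fold. Cela2a was chosen after its values were seen, and it missed the threshold with normexp background correction. Only 2 of the 9 markers had a positive difference, and the list's median was -0.48. The list's linear sums, in which bright members weigh most, ran the other way, at 4.1 to 6.37 in WT and 7.32 to 8.28 in dKO.

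The uncharacterized transcript C730027H18Rik (chr10:70634040-70634099) stood at -0.83, -1.23, -1.60 and -0.74 in WT and was not well above background on any of the dKO arrays, at least 14.6-fold lower (adjusted p = 7.16e-12, and 7.12e-07 without replicate 4).

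A further set among the lowest genes shares sequence. The probes of 5 tested transcripts hold the same 14 bases, and all 5 transcripts were lower, by 2.88 to 3.51 log2 units. These bases were taken from the probe of NAP102204-1, itself among the lowest genes, as its 14-base stretch that the most probes held. The probes, as printed on the array and named as its annotation names them, are shown with these 14 bases in capitals because they place the 5 readings in 1 family of repeated sequence; 4 of the 5 names were chosen after their values were seen.
NAP102204-1: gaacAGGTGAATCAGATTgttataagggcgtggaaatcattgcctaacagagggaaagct
NAP103484-1: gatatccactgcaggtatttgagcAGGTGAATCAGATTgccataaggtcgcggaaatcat
Gm3224: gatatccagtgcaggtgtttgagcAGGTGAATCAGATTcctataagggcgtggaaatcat
Gm3181: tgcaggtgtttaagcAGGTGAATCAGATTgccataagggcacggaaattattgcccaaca
1700066C05Rik: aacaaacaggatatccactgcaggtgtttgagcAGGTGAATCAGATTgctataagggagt
The array annotation places them on chromosomes 1, 17, 17, 13 and 16 in this order. NAP102204-1 stood at 1.25, 0.44, 0.72 and 1.08 in WT and -1.08, -4.11, -3.33 and -2.05 in dKO (-3.51; adjusted p = 0.000153, 0.0158 without replicate 4). All 5 showed the same order within the dKO group, with replicate 1 the highest and replicate 2 the lowest, and none of their groups overlapped. LOC100045610 (1.14, 0.32, 0.78 and 0.95 in WT, -1.11, -4.72, -4.66 and -2.30 in dKO) and Gm2881 (3.56, 2.67, 3.20 and 3.37 in WT, 1.36, -1.86, -1.87 and 0.23 in dKO) fell as well (adjusted p = 0.0143 and 0.0164 without replicate 4). The probes that stand for these genes did not hold the 14 bases, and whether the genes belong to this family was not tested. Whether each probe reads its own transcript was not tested.

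Markers of non-parenchymal cells were read next, since an untreated liver holds several such types. Stellate cell and fibroblast markers held 11 higher and none lower of 38 with all arrays, and 2 rose in both fits (median 0.63; 0.33 and 0.84 within the shared slides). Their sums were 112 to 142 in WT and 153 to 192 in dKO. The matrix protein Fbln2 stood at -2.25, -2.30, -2.14 and -2.11 in WT and -0.58, -0.98, -0.04 and -0.33 in dKO (1.72 ± 0.28, adjusted p = 0.0355 without replicate 4). Mgp, which inhibits calcification, rose by 1.51 ± 0.24 (adjusted p = 0.0369 without replicate 4), and the collagen Col3a1 was higher with all arrays only (1.09 ± 0.33, adjusted p = 0.316 without replicate 4). Among 33 targets of Notch, Hippo and transforming growth factor beta, 9 were higher and 1 lower, and Ankrd1, a target of the Hippo pathway (3.18 ± 0.38, adjusted p = 0.00553 without replicate 4), and the ligand Tgfb3 (1.65 ± 0.24, adjusted p = 0.0208 without replicate 4) rose in both fits. Ankrd1 was well above background on only 1 WT array, and with normexp background correction it differed by 1.19. The elastic-fibre gene Ltbp2 (1.89 ± 0.39, adjusted p = 0.0968 without replicate 4), the lysyl oxidase Loxl1 (1.57 ± 0.29, adjusted p = 0.0799 without replicate 4) and the ligand Tgfb2 (1.63 ± 0.35, adjusted p = 0.127 without replicate 4) were higher with all arrays only. Of 13 mesothelial and smooth muscle markers 2 were higher and 1 lower, none in both fits; Wt1, a mesothelial factor chosen after its values were seen, was well above background on no WT array and 3 dKO arrays (2.18 ± 0.52, adjusted p = 0.176 without replicate 4).

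Macrophage and dendritic cell markers held 7 higher and none lower of 34 with all arrays, and none passed in both fits. Of the 34, 33 had a positive difference, with a median of 1.1, and their sums were 84 to 156 in WT and 213 to 289 in dKO, without overlap. Mpeg1, a pore-forming protein of macrophages, stood at 2.32, 3.62, 2.92 and 3.17 in WT and 5.08, 4.12, 4.62 and 4.62 in dKO (1.60 ± 0.29; adjusted p = 0.00131, and 0.0584 without replicate 4). WT replicate 1 was the lowest and dKO replicate 1 the highest array. The chemokine receptor Cx3cr1 was well above background on no WT array and on all dKO arrays (2.48 ± 0.69, adjusted p = 0.301 without replicate 4), but its other probe read -0.20. The class II gene H2-Ab1 was close to the threshold even with all arrays (1.38 ± 0.44; adjusted p = 0.0499). Neutrophil markers had a median of 1.24 over 15 genes (1.11 and 0.57 within the shared slides), of which 3 were not well above background on any untreated array, and none passed in either fit; S100a9 stood at -1.03, -0.19, 0.85 and -0.15 in WT and 2.36, 0.72, 1.69 and 1.72 in dKO, with overlap (1.75 ± 0.63; adjusted p = 0.0851). T and NK cell markers held 5 higher and 1 lower of 23, none in both fits. Of the 23, 20 had a positive difference, with a median of 0.81 (1.03 and 0.40 within the shared slides). Their medians per array did not overlap, from -0.25 to 0.13 in WT and 0.73 to 0.97 in dKO relative to each gene's WT mean, while their sums did (7.18 to 9.74 in WT, 7.98 to 8.16 in dKO). The granule protease Gzmb (1.31 ± 0.38), the receptor Klrd1 (1.16 ± 0.24) and the T cell receptor subunit Cd3g (1.29 ± 0.37) were higher and the kinase Zap70 (-1.36 ± 0.24) lower, with adjusted p of 0.258, 0.115, 0.354 and 0.0506 without replicate 4. Of 11 B and plasma cell markers 2 were higher and 1 lower, none in both fits, with a median of 0.69. Their sums were 15.1 to 20.4 in WT and 23.5 to 37.3 in dKO, without overlap. Of 6 erythroid markers none passed in either fit. Of 31 endothelial markers, 1 was higher with all arrays, Vwf (0.65 ± 0.20, adjusted p = 0.341 without replicate 4). The part of these cell types in the differences of other genes was not tested.

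**Figure D4:**
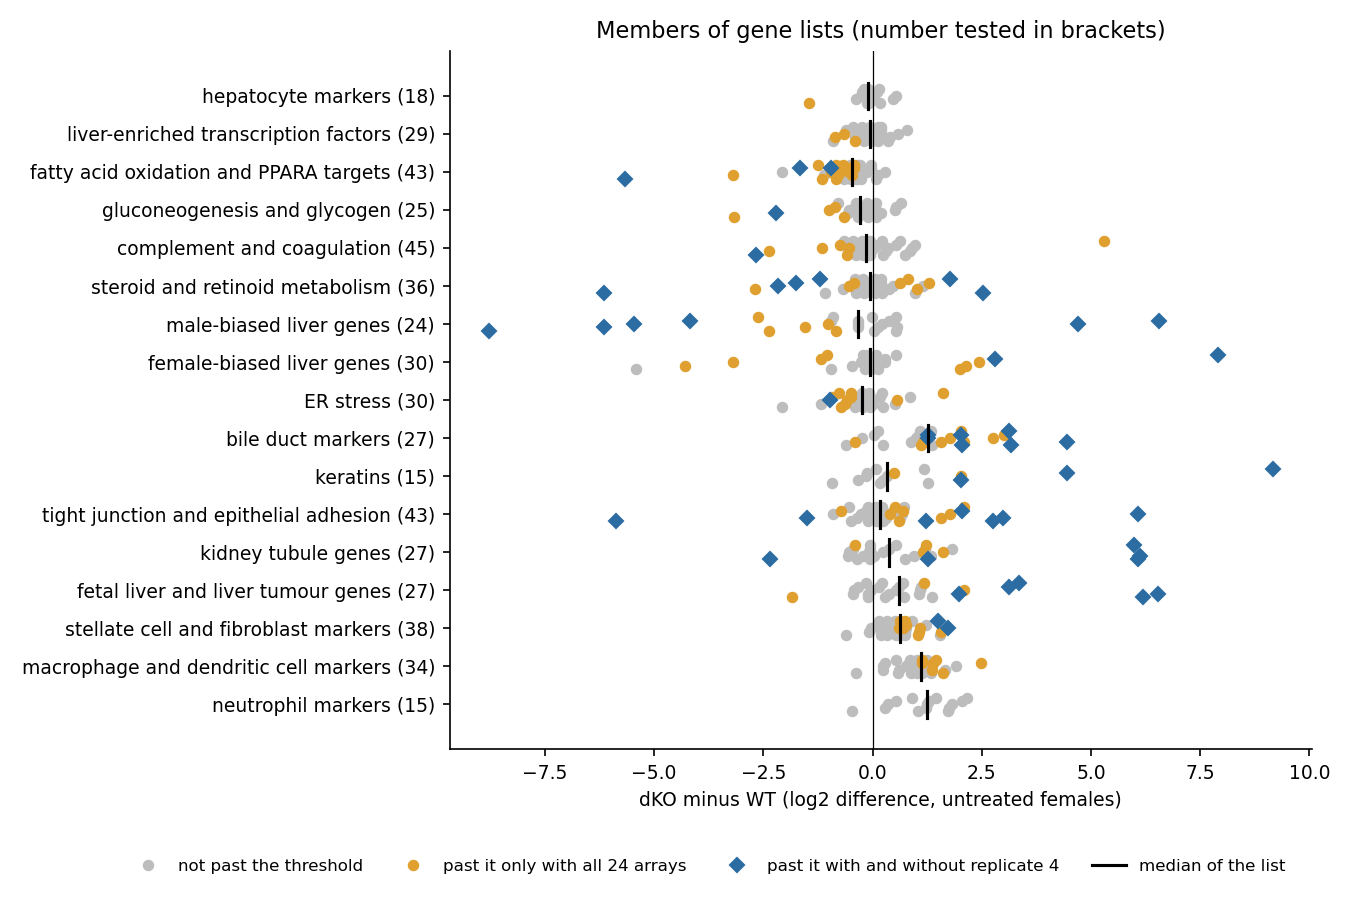
Difference between dKO and WT (log2, x axis) of each tested member of 17 gene lists, with the number tested in brackets. Blue diamonds passed the threshold with and without replicate 4, ochre points only with all 24 arrays, grey points in neither way, and black bars are list medians. Bile duct markers lie mostly above 0 with 7 blue members of 27, while macrophage and neutrophil markers lie mostly above 0 with none.

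**Figure D5:**
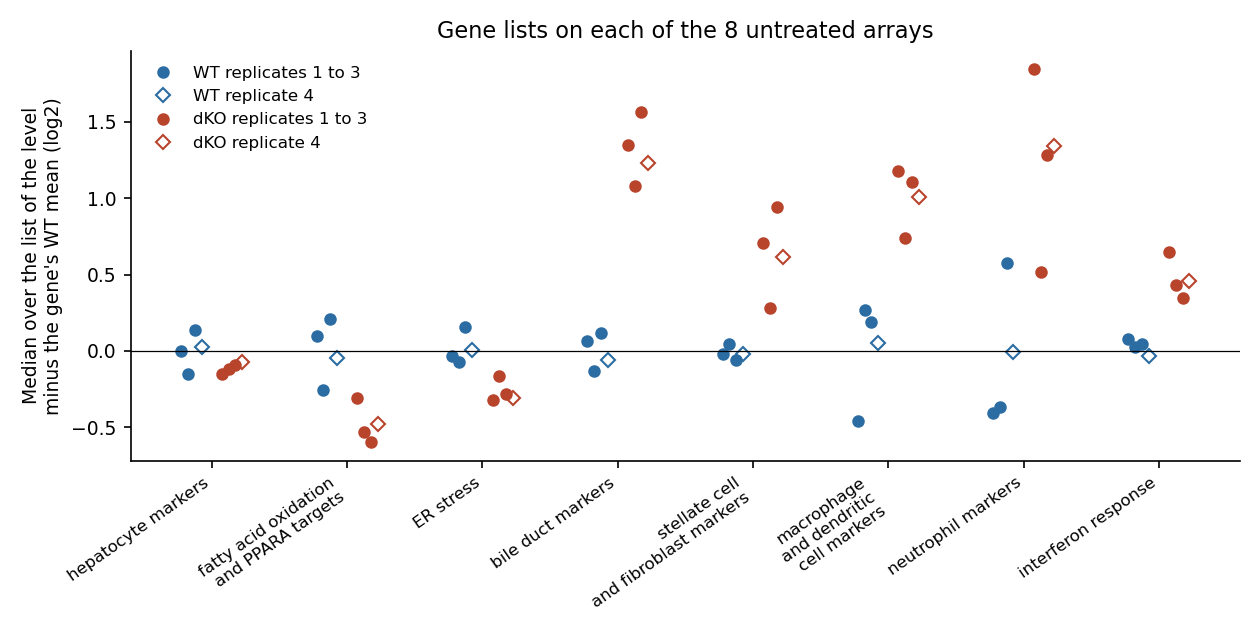
Median over the members of 8 gene lists of the level minus the gene's WT mean (log2, y axis), on each untreated array. Blue is WT, red is dKO, filled circles are replicates 1 to 3 and open diamonds replicate 4. The dKO arrays lie above the WT arrays for bile duct, stellate cell and macrophage markers and for interferon response genes, and overlap with them for hepatocyte and neutrophil markers.

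Stress and growth programmes were examined as well, and few of their genes passed in both fits. Of 30 genes of the endoplasmic reticulum stress response, 2 were higher and 8 lower with all arrays (33.3% called, against 9.81% of all genes), and 1 fell in both fits (median -0.23). This was Pdia6, a protein disulfide isomerase, at 5.94, 6.07, 6.08 and 6.04 in WT and 4.95, 4.98, 5.27 and 5.04 in dKO (-0.97 ± 0.09; adjusted p = 3.84e-07, and 0.0014 without replicate 4), the smallest standard error of any gene named here. The chaperones Creld2 (-0.93 ± 0.18, adjusted p = 0.0924 without replicate 4) and Calr (-0.78 ± 0.14, adjusted p = 0.053 without replicate 4) were lower with all arrays only, and the stress factor Atf3 was higher (1.61 ± 0.38, adjusted p = 0.158 without replicate 4). Interferon response genes had a positive difference for 30 of 31, with a median of 0.43, but 2 passed with all arrays and none in both fits. Gbp2, an interferon-induced GTPase, stood at -0.97, -0.72, -0.02 and -0.59 in WT and 2.21, 1.89, 1.88 and 1.90 in dKO (2.55 ± 0.46, adjusted p = 0.0556 without replicate 4), and its relative Gbp3 was higher by 1.56 ± 0.28 (adjusted p = 0.0629 without replicate 4). Of 32 acute phase genes 3 were higher and 2 lower (15.6% called), none in both fits. The acid glycoprotein Orm3 was higher (1.66 ± 0.51, adjusted p = 0.303 without replicate 4). Serpina3n stood at 3.95, 3.85, 3.96 and 3.84 in WT and 3.44, 1.68, 0.80 and 2.38 in dKO (-1.83 ± 0.35, adjusted p = 0.06 without replicate 4), so the WT arrays were tight and the dKO arrays wide, and the probe of the cytokine Il6 was well above background on 1 array of each genotype. Of 38 cell cycle genes 3 were higher and 1 lower, none in both fits, with a median of -0.02; the inhibitor Cdkn2b was among the higher ones (1.83 ± 0.37, adjusted p = 0.118 without replicate 4). Id1, a target of the bone morphogenetic protein pathway, was the 1 gene of 23 in the iron and hepcidin list to rise in both fits (1.38 ± 0.25, adjusted p = 0.0483 without replicate 4). No gene of 20 in the circadian list passed.

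Last, the effect of the deletion in untreated females was set against its effect in DEN-treated females, by the difference of the 2 differences. This interaction passed for 987 genes with all arrays (5.19%), 479 positive and 508 negative, and for 7 genes without replicate 4, all of them among the 987 (0.0368%). Of the 1868 genes called in untreated females, 303 (16.2%) had an interaction past the threshold, against 5.19% of all genes. The 1868 genes were chosen by their untreated effect, which enters the interaction with the opposite sign, so these shares cannot be compared directly. In treated females 5689 of the 19034 genes tested were called in either direction. Among the 989 genes higher in untreated dKO, 613 were also called higher and 33 lower in treated dKO. Among the 879 lower ones, 427 were also called lower and 25 higher. Sult1e1 is one of the 7. Treated WT livers already read 6.43, 5.91, 6.11 and 6.10, the treated dKO livers 6.59, 2.19, 7.10 and 6.02, and the interaction was -8.58 ± 0.96 (adjusted p = 7.45e-05, and 0.0234 without replicate 4). The level of untreated dKO livers was thus reached in treated livers of either genotype, with treated dKO replicate 2 the exception. Tmeff2, a membrane protein with follistatin-like domains, was not well above background on any of the untreated WT arrays and stood at -2.44, -2.12, -1.20 and -1.79 in untreated dKO, at least 8.68-fold higher (adjusted p = 0.00503 without replicate 4). In treated livers it stood at 0.86, 2.53, 1.74 and 1.81 in WT and -0.84, -3.86, -0.66 and -1.42 in dKO, so the genotypes were in reverse order, and the interaction was -7.83 ± 0.71 (adjusted p = 4.07e-06, and 0.00724 without replicate 4). The lowest of the 3 Tmeff2 probes differed by only 0.18 in untreated livers. C730027H18Rik stood at -1.50, -0.98, -2.06 and -1.43 in treated dKO and -1.22, -0.86, -0.55 and -0.85 in treated WT (interaction 4.39 ± 0.30, adjusted p = 5.99e-08, and 0.000417 without replicate 4). Serpina7 (6.45 ± 0.92, adjusted p = 0.135 without replicate 4), Rad51b, a homologous recombination gene (4.84 ± 0.81, adjusted p = 0.19 without replicate 4), Hsd3b5 (5.29 ± 1.41, adjusted p = 0.384 without replicate 4) and the gut membrane protein Lrrc19 (-4.78 ± 0.97, adjusted p = 0.256 without replicate 4) had large interactions that passed only with all arrays. Foxa1 stood at -2.99, -3.36, -3.18 and -3.07 in treated WT and was not well above background on any of the treated dKO arrays. Foxa2, well above background on 2 of the 4 treated dKO arrays, differed by -10.07 ± 0.77 in treated females, and its interaction (-1.63 ± 1.09) did not pass (adjusted p = 0.416).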

How the data were processed

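RNA of 24 mouse liver samples was hybridised to single-colour Agilent arrays with 41174 probes, 4 arrays in each of 6 groups, on 6 slides scanned on 1 day. The deposited intensity values are spot brightness, background-subtracted and detrended within each array by Agilent Feature Extraction 10.5.1.1, per the file headers (the submitters' processing notes give version 9.53). The authors' table of signed folds, a score with no value between -1 and 1, was deposited without a statement of how it was made and was used only where it is named.

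From the deposited intensities, log2 of the processed signal minus the 75th percentile of its array was taken. Control spots and outlier spots were left out, probes had to be well above background on at least 4 of the 24 arrays (28048 probes), and the brightest probe stood for each of 19034 genes. Gene names came from the array files, updated through RefSeq accessions (26783 probes matched by accession, 5126 by symbol, 934 by synonym, and 8331 kept the name in the files). One limma 3.58.1 fit (R 4.3.3) of 6 group means on all 24 arrays gave differences, standard errors and moderated tests, adjusted by Benjamini-Hochberg with a threshold of 0.05; no test used fewer arrays unless stated. The precision is limited by the number of arrays.

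The limma fit and its threshold were tested on simulated data with this design (18973 genes). Background subtraction, the filter on dim probes and the choice of probe were not part of this test. The simulated arrays were drawn independently of each other, so a replicate 4 that holds RNA of the other 3 samples was not simulated. Of genes changed by 1.5-fold, 23 of 67 were called, of those changed by 2-fold 44 of 67, of those changed by 4-fold 54 of 66, none with the wrong sign, and 7 unchanged genes were called.

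The gene lists, 38 of function and 11 of cell types, and the comparison itself were chosen with earlier results of these data known. Genes named are the 20 highest and 20 lowest called ones whose groups did not overlap, up to 8 members per list with the largest differences, a fixed set of liver genes, and 8 genes of the interaction; exceptions are given where they occur, and some genes that the rule would name are not reported here. The fits without replicate 4 were chosen after seeing the data.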

Additional observations from a re-analysis of the deposited data

Results flagged for a closer look

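Across the named genes, 12 of 294 groups of 4 arrays had 1 array far from the others by Dixon's criterion, and chance flags about 1 in 20 groups. Of these 12 arrays, 5 were WT replicate 3, at -2.0 for Slco1a1, -1.9 for Susd4, 4.9 for F11, 3.64 for Pfkfb1 and -5.47 for Cela2a. The other WT array was replicate 1 at 5.04 for Ppara. Among dKO arrays, replicate 3 stood apart at -0.12 for Mybpc2 and -6.56 for C730027H18Rik, replicate 2 at 2.34 for F11 and -4.26 for Cx3cr1, replicate 1 at 2.21 for Gbp2 and replicate 4 at -7.3 for Hsd3b5. The values for C730027H18Rik and Hsd3b5 come from probes not well above background.

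For 38 named genes the effect of the deletion differed between treated and untreated females by the limma interaction with all arrays; each value that follows is the effect in treated females minus that in untreated females, in log2 units. The values were -8.58 for Sult1e1, -7.83 for Tmeff2 and 4.39 for C730027H18Rik, which also passed without replicate 4. For the other 35 the interaction did not pass without replicate 4.

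Among the genes highest or lowest in untreated dKO, it was -4.2 for Cyp4a12a, -1.76 for Scd2, 2.59 for Irx1, 5.29 for Hsd3b5, 2.64 for Acot1, 3.94 for Susd4, 6.45 for Serpina7, 3.66 for LOC100045610, 2.21 for Enho, 3.35 for Gm2881 and 3.15 for NAP102204-1. In each of these genes the sign is opposite to that of the untreated effect, but they were chosen for a large untreated effect, which enters the interaction with the opposite sign. Among metabolic genes it was 1.61 for Acot2, -1.35 for Cyp4a10, 6.71 for Fgf21, 1.68 for Lpin1, -1.89 for Lpl, 2.51 for G6pc, -1.1 for Pfkfb1, -2.66 for Cyp2b10, -1.34 for Srd5a1 and 1.79 for Gpx3. Among transporters, receptors and chaperones it was -1.82 for Slc22a30, -1.54 for Slc10a2, -1.12 for Ghr and 0.92 for Creld2. Among epithelial, matrix and immune genes it was -2.35 for Gbp2, -1.27 for Cdh1, 1.2 for Dsp, 1.58 for Miox, 2.18 for Ltbp2 and -2.48 for Gzmb. It was -10.18 for Cfd and -8.94 for NAP025923-1, which lie side by side and varied widely among the arrays of 1 group, and 4.84 for Rad51b and -4.78 for Lrrc19.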

How the results depend on the processing

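The count of 1868 genes (989 higher, 879 lower) changed by more than 1.5 times under 6 alternatives, apart from those that left out 1 array. It was 1245 (654 higher) with array position as a covariate, 729 (324 higher, 405 lower) with normexp background correction, 2833 (1632 higher) in a fit of only the 8 untreated arrays, and 1181 (613 higher, 568 lower) with slide as a fixed block. It was 307 (175 higher, 132 lower) without replicate 4 of every group and 323 (209 higher, 114 lower) in a fit of only the 6 untreated arrays numbered 1 to 3. Leaving out 1 untreated array at a time gave 1129 to 1772 genes, 596 to 963 higher and 517 to 809 lower. Of these fits, those without WT replicate 1 (1186 genes) and without dKO replicate 4 (1129 genes) also changed the count by more than 1.5 times. Among named genes that passed with and without replicate 4 of every group, the fit of these 6 arrays did not call Cyp4a12a, Spink1, Nat8f5, Slco1a1, Hsd3b5, Susd4, LOC100045610, Gm2881, NAP102204-1, Srd5a1, Dhrs9, Id1, Cdh1, Krt23, Tgfb3, Cela2a and Rad51b, and normexp did not call Slc36a2, Foxj1, Dhrs9 and Cela2a. No other alternative ended the call of any of these genes that was tested under it; a filter that asks for all 24 arrays left some of them untested. The count of 987 interactions was 563 with no filter on dim probes, 407 with normexp, 477 in a fit of only the 16 arrays of females and 7 without replicate 4 of every group, and 553 to 855 with 1 array left out. The cause of these changes was not tested. Within slide 3 the difference of NAP025923-1 was -0.86, opposite to its difference over all arrays. The replicate numbers did not pair the arrays, since deviations of same-numbered arrays correlated at -0.10, 0.08, 0.34 and 0.06, and a fit with the number as a replicate block called 1604 genes. The value of 0.34 is that of the replicate 3 arrays, which shared slide 5. For WT replicate 1 and dKO replicate 2, which shared slide 3, the correlation was 0.19. Probes near background limit the folds given as bounds. They also limit the differences of genes that were well above background on only some arrays of the dimmer group.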
